A study of Homo sapiens with 6 samples.

Results

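The lysosome is the acidic compartment in which cells break down proteins, glycans, lipids and worn-out organelles, and 54 genes that encode its hydrolases, lumenal cofactors, membrane proteins, 2 transcriptional regulators and its proton pump were examined in SH-SY5Y cells that overexpressed *Esrrg*. The members were listed by their function, and all 54 were found among the 67060 gene rows of the count table. They comprised 28 hydrolases, 3 lumenal cofactors and carriers, 6 membrane proteins, 2 regulators and 15 genes of the vacuolar-type ATPase (V-ATPase). SH-SY5Y cells derive from a human neuroblastoma and are widely used as a catecholaminergic neuronal model. All cells were infected with an adenovirus and collected after 24 h. Control cells received Ad CMV GFP (replicates 1, 3 and 4), and the other cells received Ad CMV 3xFlag-*Esrrg* (replicates 2, 3 and 4), which carries the mouse coding sequence of *Esrrg* with a Flag tag. The CMV promoter drives the transgene at high level in any infected cell, the cells came from 1 tumor line, and each library was made from bulk RNA depleted of ribosomal RNA. The labels do not say that the libraries came from separate cultures, so the p-values measure the spread between these samples, which may be technical.

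*Esrrg* encodes ERRγ, an orphan nuclear receptor that activates genes of oxidative metabolism from a DNA element of the form TNAAGGTCA. Lysosomal hydrolases are made in the endoplasmic reticulum, delivered to the lysosome and active at acid pH, which the V-ATPase maintains by pumping protons. The pump has a membrane sector, V0, which conducts the protons, and a cytosolic sector, V1, which hydrolyzes ATP. Many lysosomal genes carry the E-box CACGTG near their start, often within the longer palindrome TCACGTGA, where the transcription factors TFEB, TFE3 and MITF bind. Neurons depend on this system to clear protein aggregates, and inherited loss of many of these enzymes causes storage disorders of the nervous system.

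The sequences upstream of the members' starts are shown first because the E-box is the feature by which this gene group is best known. RefSeq promoter windows on GRCh38.p14, from 250 bases before to 50 bases after each start, were matched for 40 of the 54 members. The E-box CACGTG was searched on both strands, and so was the longer palindrome TCACGTGA, every copy of which holds an E-box. The core AAGGTCA of the ERR element was searched in the same way, as was the longer form TNAAGGTCA, every copy of which holds the core. CACGTG was present in 12 of the 40 members (30%), compared with 8.77% of all 27305 genes with a window. TCACGTGA was present in 7 of the 40 (17.5%), compared with 1.18% of all genes. All members are protein-coding, while these shares include noncoding genes. Of protein-coding genes with a window that were tested for expression, 1331 held CACGTG and 9768 did not. For TCACGTGA these numbers were 235 and 10864. AAGGTCA was found in 0 of the 40 and in 4.80% of all genes, and TNAAGGTCA in 0 of the 40 and in 1.17% of all genes, which says only that these letters were not within the windows. Stretches around E-boxes of all 12 members that have one follow, 1 stretch for each, 5′ to 3′ on the strand of the gene, with up to 30 flanking bases, cut before the first transcribed base, and with the E-box or its longer palindrome in capitals.
ATP6V0B (V0 subunit, chr1:43974873-43974956, plus strand): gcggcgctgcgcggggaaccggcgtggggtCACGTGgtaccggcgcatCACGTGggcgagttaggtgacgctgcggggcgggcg
ATP6V0D1 (V0 subunit, chr16:67481180-67481247, minus strand): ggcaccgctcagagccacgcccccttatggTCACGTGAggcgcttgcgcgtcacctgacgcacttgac
ATP6V1G1 (V1 subunit, chr9:114587680-114587747, plus strand): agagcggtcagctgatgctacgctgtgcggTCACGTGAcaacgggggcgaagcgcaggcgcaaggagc
CTSA (protease, chr20:45891263-45891334, plus strand): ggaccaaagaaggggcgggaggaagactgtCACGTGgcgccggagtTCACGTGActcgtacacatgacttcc
CTSD (protease, chr11:1763939-1764004, minus strand): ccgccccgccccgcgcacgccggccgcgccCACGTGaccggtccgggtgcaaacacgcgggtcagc
GAA (glycosidase, chr17:80101474-80101580, plus strand): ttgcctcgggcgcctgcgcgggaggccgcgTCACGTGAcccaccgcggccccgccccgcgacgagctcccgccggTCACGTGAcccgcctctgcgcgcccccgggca
LAMP1 (membrane protein, chr13:113297017-113297132, plus strand): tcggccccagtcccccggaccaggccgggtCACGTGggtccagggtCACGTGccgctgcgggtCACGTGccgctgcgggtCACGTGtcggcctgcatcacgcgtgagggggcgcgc
MCOLN1 (membrane channel, chr19:7522552-7522623, plus strand): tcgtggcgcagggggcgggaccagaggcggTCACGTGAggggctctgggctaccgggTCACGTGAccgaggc
CD63 (membrane protein, chr12:55729154-55729219, minus strand): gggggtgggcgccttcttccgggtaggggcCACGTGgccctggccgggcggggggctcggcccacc
CTSF (protease, chr11:66568622-66568687, minus strand): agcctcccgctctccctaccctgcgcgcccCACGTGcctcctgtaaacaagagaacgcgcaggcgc
ARSB (sulfatase, chr5:78986083-78986148, minus strand): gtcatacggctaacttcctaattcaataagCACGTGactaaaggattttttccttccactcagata
GALNS (sulfatase, chr16:88856948-88857009, minus strand): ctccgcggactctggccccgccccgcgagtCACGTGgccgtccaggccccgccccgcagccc
The first 9 of these genes were called higher with *Esrrg*, and *CTSF*, *ARSB* and *GALNS* were not called. When fold changes were corrected for GC content and length, 3 of the 9 kept their call, namely *ATP6V0B*, *ATP6V0D1* and *ATP6V1G1*, and *CTSF* was called lower. *LAMP1* held the most E-boxes, 6 in its window, of which 2 lay in the longer palindrome.

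Gene counts totaled 24969759 to 29700980 reads per control library and 26513620 to 40859666 per library with *Esrrg*. Reads that HTSeq assigned to no gene made up 51.3% to 52.2% of the reads of the control libraries and 46.6%, 31.6% and 29.5% of those of Ad CMV 3xFlag-*Esrrg* replicates 2, 3 and 4, so this share moved with the groups and set replicate 2 apart. Levels are given as CPM, counts scaled to a common library total with TMM factors, and folds, standard errors (SE) and adjusted p-values come from edgeR's quasi-likelihood test over 24500 genes. A gene was called changed at an adjusted p below 0.05 and a change of at least 1.5-fold. *ESRRG*, the overexpressed gene, was at 83.6, 90.4 and 86.9 CPM in Ad CMV GFP replicates 1, 3 and 4 and at 569.6, 772 and 778 CPM in Ad CMV 3xFlag-*Esrrg* replicates 2, 3 and 4, a log2 fold change of 3.02 (SE 0.14, adjusted p = 6.3e-07). These libraries fit their labels, although reads from the mouse transgene and from the human gene cannot be told apart. Of 12 sympathoadrenal neuroblastoma markers, 10 had counts and the defining markers *TH* and *CHGA* were listed at 0 in every library. Their summed level was 866 to 925 CPM with Ad CMV GFP and 616 to 815 CPM with Ad CMV 3xFlag-*Esrrg*, with 1 called higher and 4 lower. Macrophages are rich in lysosomes, and the summed level of 7 immune markers was 2.98 to 3.69 CPM with Ad CMV GFP and 2.88 to 3.32 CPM with Ad CMV 3xFlag-*Esrrg*, with 2 of the 7 tested and 0 called. Of 7 mesenchymal markers, 3 were called lower and 0 higher, with sums of 3667 to 3805 and 3357 to 3598 CPM, most of it from *COL3A1*. The 4 epithelial markers summed to 34.0 to 41.0 and 59.1 to 92.8 CPM, where *KRT18* was the 1 marker called. The part of these shifts in the results was not tested, and in bulk RNA fewer cells of a type cannot be told apart from less RNA per cell.

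Lysosomal genes were mostly higher or not called with *Esrrg*, and 1 was lower. Of the 54 members, 53 passed the filter on low counts, 23 were called higher (43.4%), 1 was called lower (1.89%) and 29 were not called. Over all genes tested, 17.3% were called higher and 16.8% lower, and over protein-coding genes, to which all members belong, 25.9% were called higher and 12.4% lower. The median log2 fold change of the members was 0.46, against -0.10 over all genes tested and 0.12 over protein-coding genes. In all 24 called members the groups did not overlap. Of the 29 others, 9 had every Ad CMV 3xFlag-*Esrrg* library above every control library, 5 had every one below and 15 overlapped. That makes 32 of the 53 members tested without overlap upward and 6 downward. The same patterns were seen in 27.8% and 30.3% of all genes tested. Of the 13746 protein-coding genes tested, 5753 had no overlap upward and 3906 downward. Within the Ad CMV 3xFlag-*Esrrg* group, replicate 2 was the lowest library in all 23 members called higher and in 45 of the 53 tested.

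**Figure D1:**
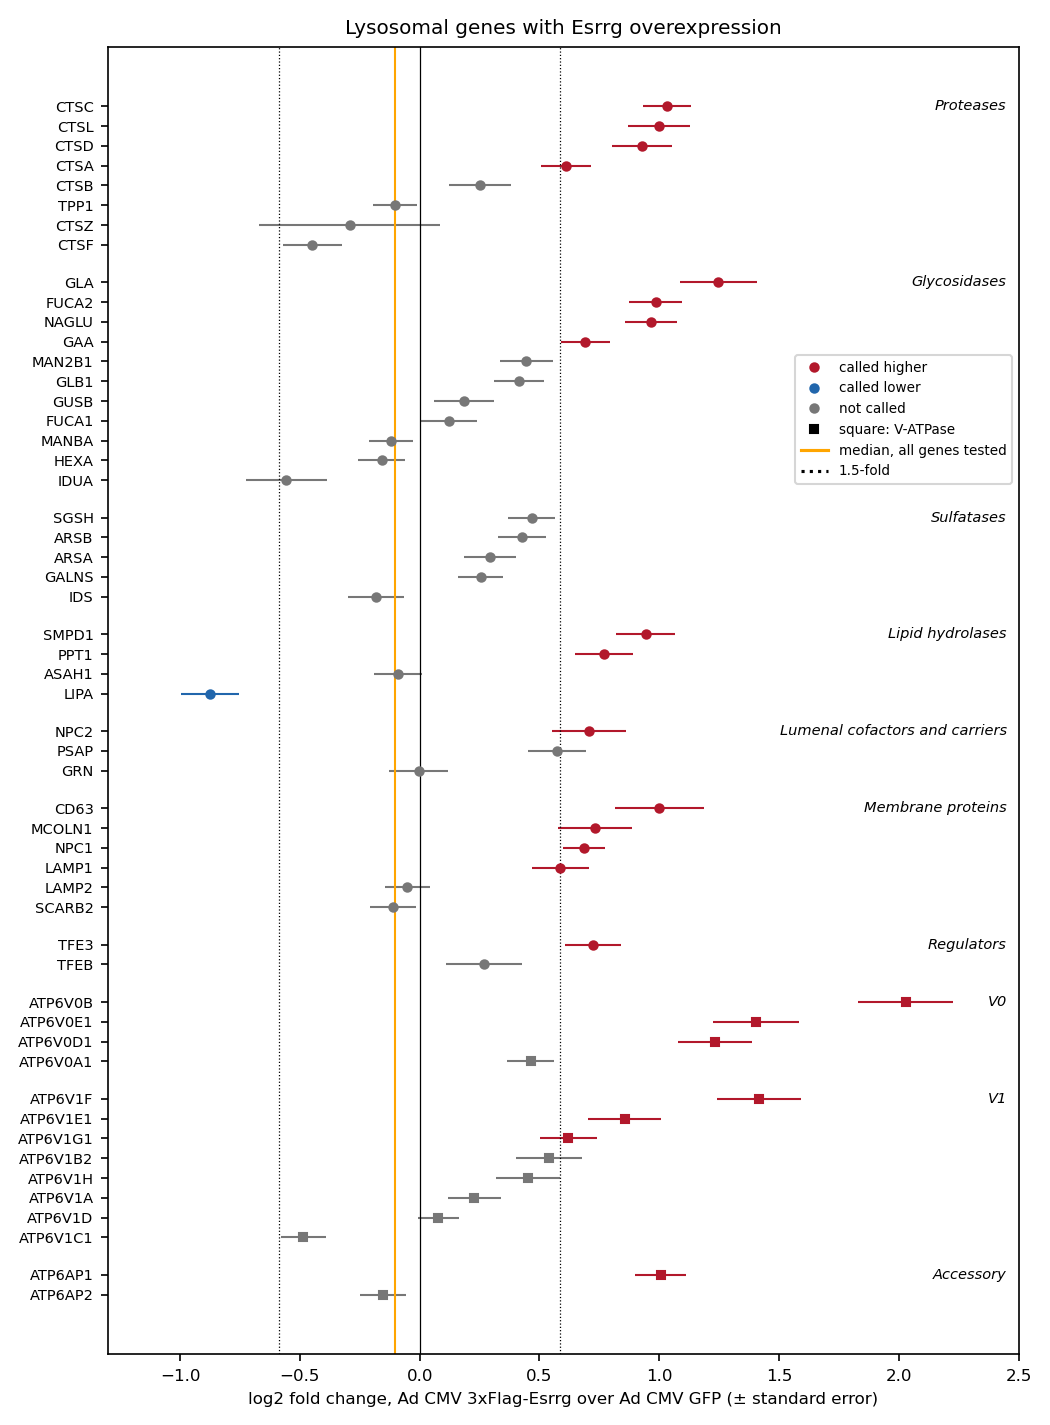
Fold changes of the 53 members tested, grouped by role. The x axis gives the log2 fold change of Ad CMV 3xFlag-*Esrrg* over Ad CMV GFP (3 libraries each) with its standard error, the y axis the genes, the dotted lines a 1.5-fold change and the orange line the median over all genes tested. Points reach from *LIPA* at -0.87 to *ATP6V0B* at 2.03, with 23 members called higher and 1 called lower.

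**Figure D2:**
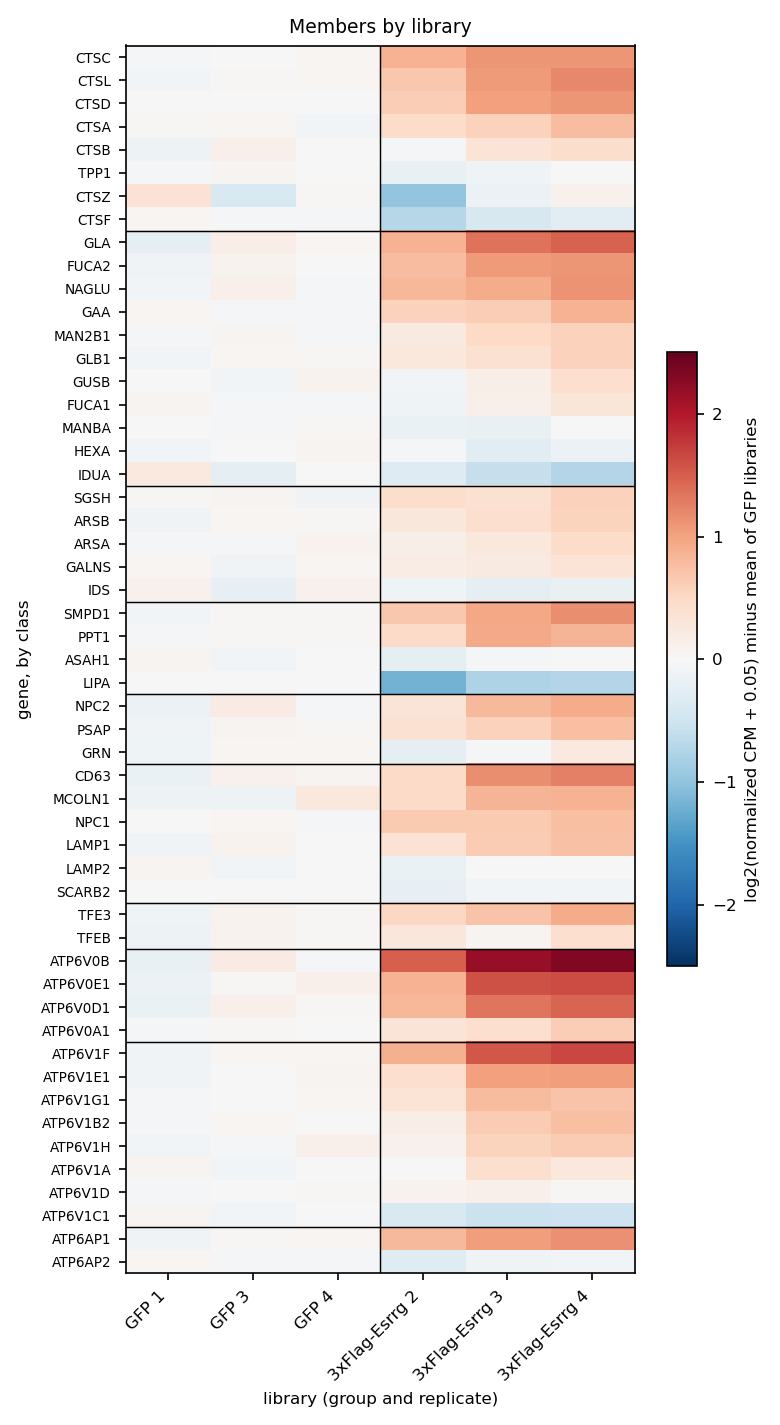
Members in each library. Colors give log2(normalized CPM + 0.05) minus the mean of the 3 Ad CMV GFP libraries, rows are the 53 members tested in the order of their classes and columns the 6 libraries. The control columns are close to 0, and Ad CMV 3xFlag-*Esrrg* replicate 2 is paler than replicates 3 and 4 in most rows.

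The V-ATPase held the 3 largest fold changes among the members, those of *ATP6V0B*, *ATP6V1F* and *ATP6V0E1*. Of its 15 genes, 14 were tested, 7 were called higher (50%) and 0 lower, with a median log2 fold change of 0.58. DESeq2 called 8 higher and 0 lower, and at an unadjusted p below 0.05 without a fold limit edgeR had 10 upward and 1 downward. In V0, the membrane sector, 3 of 4 tested subunits were called higher with a median of 1.32. In V1, the catalytic sector, 3 of 8 were called with a median of 0.50, and of the 2 accessory proteins 1 was called. The summed CPM of V0 was 194 ± 14.2 (SD, n = 3) with Ad CMV GFP and 456 ± 101 with Ad CMV 3xFlag-*Esrrg*, and that of V1 was 422 ± 8.42 and 581 ± 91.3. The ratio of the V0 to the V1 sum was 0.428 to 0.492 in the control libraries and 0.719 to 0.840 with *Esrrg*, so the groups did not overlap. These sums follow transcript counts of unequal length and are not a stoichiometry of the pump. The V0 sum, and the V-ATPase sum given below, also hold almost nothing from the ring subunit gene *ATP6V0C*. It was listed at 0.0323 to 0.470 CPM and could not be assessed, so sums and ratios leave its true level out.

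*ATP6V0B* encodes the c″ subunit of the proton-conducting ring (ENSG00000117410, GRCh38 chr1:43974487-43978295). It was at 23.9, 31.7 and 26.9 CPM in the control libraries and at 76.5, 123 and 137 CPM with *Esrrg*. Every library with *Esrrg* was above every control library, replicate 2 was the lowest of them, and the log2 fold change of 2.03 (SE 0.20, adjusted p = 4.7e-05) was the largest of all members. *ATP6V0D1* encodes the d subunit, which links the ring to the central stalk, and rose from 51.0, 62.7 and 58.8 CPM to 102, 145 and 157 CPM (log2 fold change 1.23, SE 0.15, adjusted p = 0.00016). *ATP6V0E1*, the small e subunit, rose from 41.2, 46.6 and 49.6 to 83.4, 137 and 142 CPM (log2 fold change 1.40, SE 0.18, adjusted p = 0.00019). Neither gene had overlapping groups. *ATP6V0A1* encodes the a1 isoform of the large subunit that is prominent in neurons. It was at 61.7, 64.6 and 63.2 CPM in the control libraries and at 79.5, 85.1 and 96.6 CPM with *Esrrg*. Its groups did not overlap, but its log2 fold change of 0.46 (adjusted p = 0.0031) was below the 1.5-fold limit, so it was not called.

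*ATP6V0C*, which encodes the c subunit that makes up most of the ring, could not be assessed (ENSG00000185883, chr16:2513952-2520218). It had 10, 1 and 9 counts in the control libraries and 8, 10 and 16 counts with *Esrrg*, and it did not pass the filter on low counts. In GENCODE release 44, 76.3% of its exon bases lie also in the exons of 2 protein-coding genes on the same strand that were at 0 counts in every library. Reads that overlap several genes are summed as ambiguous in the table and not on a gene, and how many of them came from *ATP6V0C* is not recorded.

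In V1, *ATP6V1F* encodes the F subunit of the central stalk. It was at 20.6, 22.5 and 22.5 CPM in the control libraries and at 40.6, 64.7 and 69.8 CPM with *Esrrg*. All 3 *Esrrg* libraries were above the controls, with replicate 2 well below the other two, and the log2 fold change was 1.42 (SE 0.17, adjusted p = 0.00015). Its value is uncertain in that 20.6% of its exon bases lie opposite *KCP*, which was at 1.06 to 2.30 CPM. *ATP6V1E1*, of the peripheral stalks, rose from 55.4, 59.5 and 61.7 to 78.3, 119 and 122 CPM, a log2 fold change of 0.86. *ATP6V1G1*, its partner in the peripheral stalks, rose from 47.8, 49.8 and 51.3 to 62.7, 85.3 and 80.8 CPM, a log2 fold change of 0.62 that was close to the limit and fell to 0.54 without Ad CMV 3xFlag-*Esrrg* replicate 3, where it was no longer called. Groups did not overlap in either gene.

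The subunits that form the catalytic head were not called by edgeR's test. *ATP6V1A*, the catalytic A subunit, was at 92.4, 84.0 and 88.6 CPM in the control libraries and at 88.6, 116 and 106 CPM with *Esrrg*, which overlapped. *ATP6V1B2*, the B subunit, had a log2 fold change of 0.54 (adjusted p = 0.0083) with no overlap, below the fold limit. DESeq2 called it at 0.62, and it was called with RLE size factors (0.62), the replicate block (0.67), the GC and length correction (0.71) and without Ad CMV 3xFlag-*Esrrg* replicate 2 (0.80). It was not called with protein-coding genes only (0.40) or when only library sizes were scaled (0.20). With each library's percentage of reads outside genes as a covariate it was at -0.0023. The block rests the group difference on replicates 3 and 4, so replicate 2 takes no part in that difference. *ATP6V1D*, of the central stalk, had 0.08, and *ATP6V1H*, a regulatory subunit, had 0.45 with overlapping groups. *ATP6V1C1*, the C subunit that joins V1 to V0 in reversible assembly, was the V-ATPase gene with the most negative value. It was at 53.1, 48.6 and 50.8 CPM with Ad CMV GFP and at 38.9, 34.8 and 35.2 CPM with *Esrrg* (log2 fold change -0.49, SE 0.09, adjusted p = 0.0017). Its groups did not overlap, but the change did not reach 1.5-fold.

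Of the accessory proteins, *ATP6AP1*, which encodes Ac45, an assembly factor of the membrane sector, rose from 58.0, 62.8 and 63.1 CPM to 108, 126 and 136 CPM without overlap (log2 fold change 1.01, SE 0.11, adjusted p = 7e-05). *ATP6AP2*, which encodes the prorenin receptor, was at 93.4, 88.5 and 88.4 CPM and at 73.1, 83.8 and 86.3 CPM. Its log2 fold change of -0.15 (adjusted p = 0.21) did not pass the test.

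**Figure D3:**
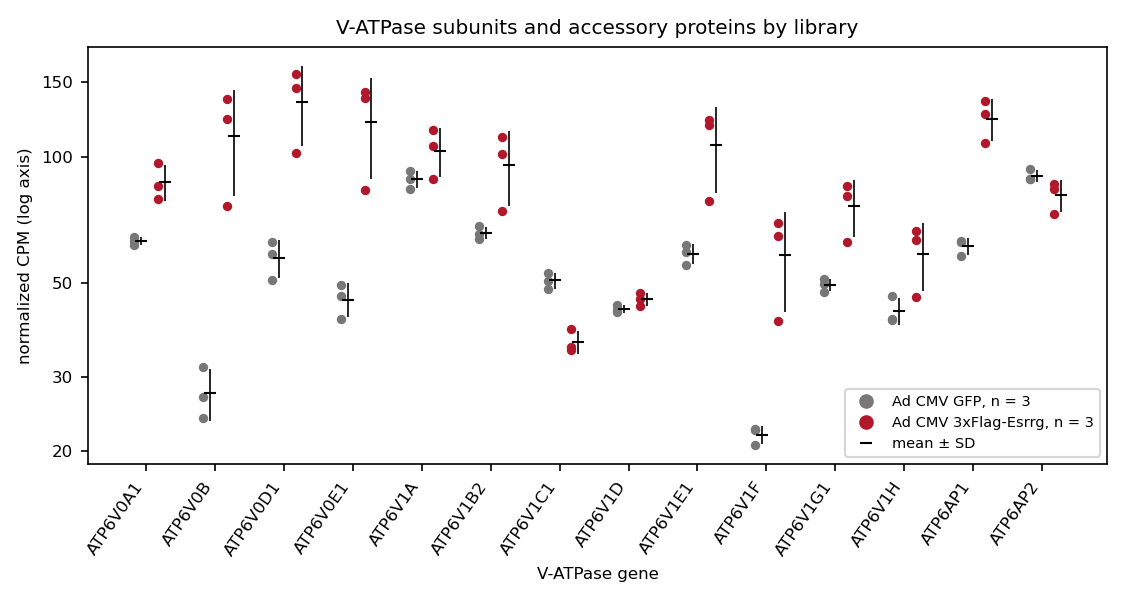
V-ATPase genes by library. Points are normalized CPM on a log axis for each of 3 Ad CMV GFP (gray) and 3 Ad CMV 3xFlag-*Esrrg* (red) libraries, with the mean and SD as a black bar. The groups are farthest apart for *ATP6V0B*, whose means are 27.5 and 112 CPM, and *ATP6V1C1* lies lower with *Esrrg* in every library.

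Among the 28 hydrolases, 10 were called higher (35.7%) and 1 lower, with a median log2 fold change of 0.35. Their summed level was 1229.6 ± 18.7 CPM (SD, n = 3) with Ad CMV GFP and 1719 ± 189 CPM with Ad CMV 3xFlag-*Esrrg*, a ratio of 1.40, compared with 767 ± 18.7 and 1241 ± 212 CPM and a ratio of 1.62 for the V-ATPase. Within libraries, the hydrolase sum was 1.58 to 1.62 times the V-ATPase sum in the controls and 1.31 to 1.52 times with *Esrrg*, and the groups did not overlap. The V-ATPase median was above the hydrolase median under each of the 17 settings compared, by 0.23 in the fit reported here and by 0.088 to 0.61 over the others. The difference between the 2 classes has no test of its own, and every setting refits the same members. Among the further lysosomal genes described below the order was the reverse. Their median was 0.32 for hydrolases and cofactors and -0.13 for other V-ATPase isoforms and regulators. The hydrolase genes were richer in G and C, with a median GC content of 51.4%, against 43.1% for the V-ATPase and 46.4% for all genes tested. With a correction of the fold changes for GC content and gene length, the hydrolase median was 0.067 with 5 called higher and 3 lower, and the V-ATPase median was 0.65 with 8 called higher. When each library's percentage of reads outside genes entered the fit as a covariate, the medians were 0.13 and 0.22, with 4 and 5 called higher. The median over all genes tested was -0.064 with the correction and 0.016 with the covariate. The shares of all genes called in those fits are not given here.

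**Figure D4:**
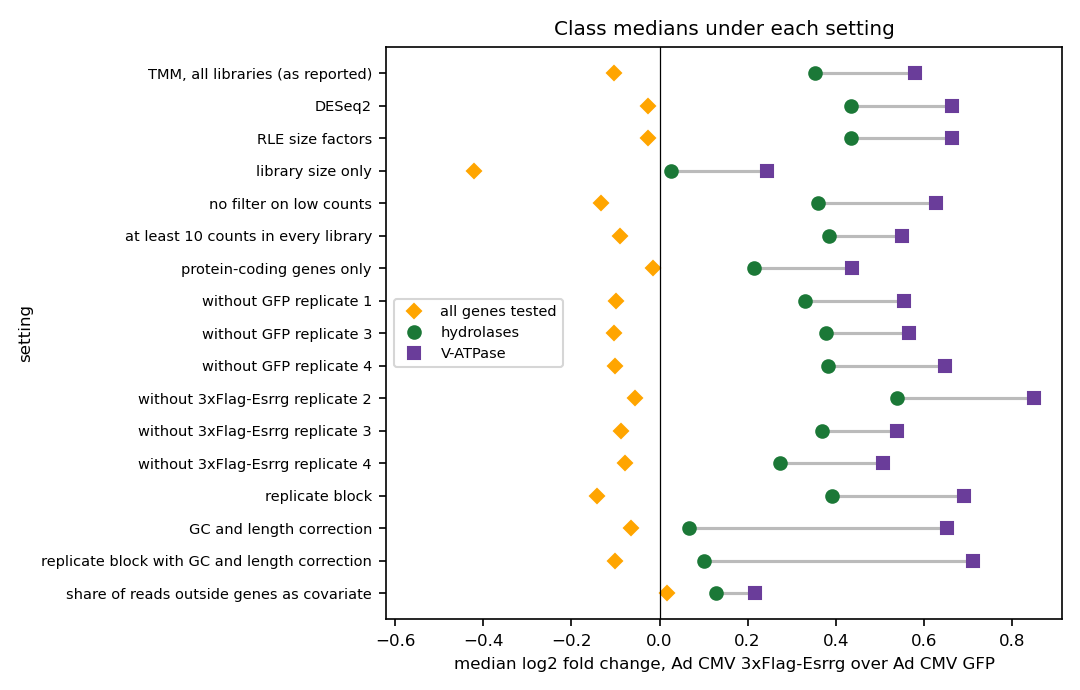
Class medians under each setting. The x axis gives the median log2 fold change of Ad CMV 3xFlag-*Esrrg* over Ad CMV GFP, each row is 1 setting, and circles, squares and diamonds stand for the hydrolases, the V-ATPase and all genes tested. The squares lie to the right of the circles in all 17 rows, and the hydrolases move from 0.35 to 0.067 with the GC and length correction.

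The proteases split evenly, with 4 of 8 called higher and 0 lower. *CTSC* encodes cathepsin C, a dipeptidase that activates serine proteases (ENSG00000109861, chr11:88265069-88359684). It was at 100.2, 104 and 108 CPM in the control libraries and at 191, 223 and 224 CPM with *Esrrg* (log2 fold change 1.03, SE 0.10, adjusted p = 4.8e-05). The groups were far apart and the spread within each was small. *CTSL*, the endopeptidase cathepsin L, rose from 38.6, 41.5 and 41.8 CPM to 65.0, 85.3 and 93.2 CPM (log2 fold change 1.00, SE 0.13, adjusted p = 0.00019). *CTSD*, the aspartic protease cathepsin D, which degrades α-synuclein, was at 32.3, 32.5 and 31.8 CPM in the controls and at 49.4, 65.3 and 69.0 CPM with *Esrrg* (log2 fold change 0.93, SE 0.12, adjusted p = 0.00024). Both genes were higher in every *Esrrg* library than in any control, with replicate 2 the lowest. In the annotation 48.0% of the *CTSD* exon bases are shared with other genes, each at 1.53 CPM or less. The part of that sharing in its value was not tested.

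*CTSA*, which encodes a carboxypeptidase that also protects β-galactosidase and neuraminidase, rose from 75.3, 76.2 and 70.4 to 102, 110.3 and 127 CPM. Its value is uncertain in that 21.5% of its exon bases lie opposite other genes, of which *PLTP* was at 56.0 to 83.5 CPM. Its log2 fold change of 0.61 was close to the limit, and it was not called without Ad CMV GFP replicate 4 (0.58) or Ad CMV 3xFlag-*Esrrg* replicate 4 (0.53). Among the proteases not called, *CTSB*, cathepsin B, had a log2 fold change of 0.25 and *TPP1*, a tripeptidyl peptidase, had -0.10, both with overlapping groups. *CTSF*, cathepsin F, was at 19.4, 18.3 and 18.4 CPM in the controls and at 11.4, 14.2 and 15.5 CPM with *Esrrg*. Its log2 fold change of -0.45 (adjusted p = 0.013) was below the fold limit without overlap, while with the GC and length correction it was -0.93 and called lower. *CTSZ* was almost absent, at 0.262 to 0.745 CPM over the 6 libraries, and 31.7% of its exon bases lie opposite *NELFCD*.

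Of the 11 glycosidases, 4 were called higher and 0 lower. *GLA* encodes α-galactosidase A, the enzyme deficient in Fabry disease, and had the largest change of the hydrolases. It was at 12.2, 15.9 and 14.7 CPM in the controls and at 25.8, 36.4 and 39.2 CPM with *Esrrg*, with no overlap and replicate 2 the lowest (log2 fold change 1.25, SE 0.16, adjusted p = 0.00019). *FUCA2*, an α-fucosidase that is mostly secreted, was at 43.6, 49.3 and 46.3 CPM and at 79.2, 96.5 and 99.8 CPM (log2 fold change 0.98, SE 0.11, adjusted p = 9.2e-05). *NAGLU*, an enzyme of heparan sulfate breakdown, was at 19.2, 22.1 and 19.6 CPM and at 36.2, 38.4 and 44.3 CPM (log2 fold change 0.96, SE 0.11, adjusted p = 0.0001). The groups were apart in both genes.

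*GAA*, the acid α-glucosidase that degrades glycogen, rose from 84.9, 80.4 and 80.7 to 123, 126 and 149 CPM, a log2 fold change of 0.69. The other 7 glycosidases were not called and ranged from -0.56 to 0.45. *MAN2B1*, an α-mannosidase, and *GLB1*, the acid β-galactosidase, had 0.45 and 0.41 with no overlap between groups. *MAN2B1* shares 21.2% of its exon bases with genes on the same strand and is uncertain, and with the GC and length correction it was at 0.00091. *FUCA1*, the lysosomal α-fucosidase, had 0.12 with overlapping groups, and *HEXA*, the α subunit of β-hexosaminidase, had -0.16. *IDUA*, an α-iduronidase of heparan and dermatan sulfate breakdown, was at 8.69, 6.24 and 7.31 CPM in the controls and at 5.84, 4.93 and 4.37 CPM with *Esrrg*. Its groups did not overlap, and its log2 fold change was -0.56 (adjusted p = 0.02), just inside the fold limit. It was called lower without Ad CMV GFP replicate 3, at -0.67, and with the GC and length correction, at -1.12.

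Of the 5 sulfatases, 0 were called by edgeR's test with the fold limit and 0 by DESeq2, although 4 passed an unadjusted p below 0.05, and the adjusted p as well, in the upward direction. Without Ad CMV 3xFlag-*Esrrg* replicate 2, *SGSH* (0.59) and *ARSB* (0.60) were called higher. The 4 were *SGSH* at a log2 fold change of 0.47, *ARSB* at 0.43, *ARSA* at 0.29 and *GALNS* at 0.25, and each had every *Esrrg* library above every control library. *SGSH*, a sulfamidase of heparan sulfate breakdown, was at 38.5, 39.5 and 35.7 CPM and at 51.3, 49.0 and 56.8 CPM. *IDS*, the iduronate sulfatase, had -0.18 with overlapping groups, and 75.9% of its exon bases are shared with other genes. With the GC and length correction *SGSH* was at 0.0073, *ARSA* at -0.21 and *GALNS* at -0.16, while *ARSB* was at 0.47 (adjusted p = 0.0014).

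The 4 lipid hydrolases held both directions. *SMPD1* encodes acid sphingomyelinase and was at 40.3, 43.0 and 43.2 CPM in the controls and at 67.1, 82.2 and 93.8 CPM with *Esrrg* (log2 fold change 0.94, SE 0.12, adjusted p = 0.00019). *PPT1*, which removes palmitate from proteins, rose from 80.6, 86.0 and 85.1 to 117, 161 and 151 CPM, a log2 fold change of 0.77. The groups were apart in both genes. *ASAH1*, acid ceramidase, had -0.09 with overlapping groups. *LIPA* encodes lysosomal acid lipase, which hydrolyzes cholesteryl esters and triglycerides (ENSG00000107798, chr10:89213569-89414557), and was the 1 member called lower. It was at 68.4, 69.5 and 69.0 CPM in the control libraries and at 30.6, 40.5 and 41.7 CPM with *Esrrg*. The controls lay close together, every *Esrrg* library was below them with replicate 2 the farthest, and the log2 fold change was -0.87 (SE 0.12, adjusted p = 0.00027). Its fold stayed between -1.31 and -0.64 under all alternatives.

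Of the 3 lumenal cofactors and carriers, 1 was called. *NPC2*, the soluble cholesterol carrier, was at 63.1, 80.6 and 67.8 CPM in the controls and at 88.1, 123 and 134 CPM with *Esrrg*, with no overlap (log2 fold change 0.71, SE 0.15, adjusted p = 0.0036). *PSAP*, the precursor of the saposins that activate sphingolipid hydrolases, was at 450.2, 496 and 483 CPM and at 616, 714 and 798 CPM. Its groups did not overlap, and its log2 fold change of 0.57 (adjusted p = 0.0029) was just under the limit. It was called without Ad CMV GFP replicate 3 (0.61) or 4 (0.59) and without Ad CMV 3xFlag-*Esrrg* replicate 2 (0.77). It was lower and not called with the GC and length correction (0.20), the covariate for reads outside genes (0.26) and library size only (0.25). *GRN*, which encodes progranulin, was at 74.3, 83.0 and 82.8 CPM and at 67.7, 77.9 and 94.1 CPM. The *Esrrg* libraries lay on both sides of the controls, and the log2 fold change was -0.0028 (SE 0.12, adjusted p = 0.99).

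Among the 6 membrane proteins 4 were called higher and 0 lower. *NPC1*, the membrane cholesterol transporter that receives its cargo from *NPC2*, rose from 39.5, 40.5 and 38.0 to 61.6, 62.1 and 66.3 CPM (log2 fold change 0.69, SE 0.09, adjusted p = 0.00018). This gene had a narrow spread in both groups, replicate 2 included. *CD63*, a tetraspanin of late endosomes, was at 313, 379 and 366 CPM and at 488, 781 and 846 CPM (log2 fold change 1.00, SE 0.19, adjusted p = 0.0014). *MCOLN1*, the calcium channel TRPML1, was at 7.17, 7.18 and 9.43 CPM and at 10.9, 14.1 and 14.4 CPM (log2 fold change 0.73, SE 0.16, adjusted p = 0.0031). Both had groups that did not overlap, with replicate 2 the lowest *Esrrg* library.

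The major glycoproteins of the lysosomal membrane gave unlike values. *LAMP1* was at 219, 247 and 234 CPM in the controls and at 300.2, 363 and 388 CPM with *Esrrg*, with a log2 fold change of 0.59 (SE 0.12, adjusted p = 0.0023). That is at the limit, and it was not called without Ad CMV GFP replicate 1 (0.54), Ad CMV 3xFlag-*Esrrg* replicate 3 (0.57) or replicate 4 (0.52). *LAMP2* was at 110.0, 100.3 and 107 CPM and at 94.4, 107 and 105 CPM, which overlapped, with a log2 fold change of -0.05 (SE 0.09, adjusted p = 0.67). *SCARB2*, the receptor LIMP-2 that carries glucocerebrosidase to the lysosome, was at 306, 300.5 and 299 CPM and at 262, 287 and 288 CPM. All of its *Esrrg* libraries were below the controls, and its log2 fold change of -0.11 (adjusted p = 0.35) did not pass the test.

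The regulators TFEB and TFE3 bind the E-boxes of lysosomal genes when they enter the nucleus, a step that transcript levels do not show. *TFEB* was at 3.76, 4.40 and 4.23 CPM in the controls and at 5.05, 4.34 and 5.55 CPM with *Esrrg*, with overlapping groups and a log2 fold change of 0.27 (SE 0.16, adjusted p = 0.19). *TFE3* was more abundant, at 45.5, 52.0 and 49.7 CPM and at 69.9, 80.2 and 93.1 CPM (log2 fold change 0.72, SE 0.12, adjusted p = 0.00064). Its groups did not overlap. With the GC and length correction *TFE3* was at 0.27 and not called.

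Of the 12 members with CACGTG in their window, all 12 were tested, 9 were called higher and 0 lower, with a median log2 fold change of 0.66. Of the 27 tested members with a window but no CACGTG, 12 were called higher and 1 lower, with a median of 0.45. For TCACGTGA the numbers called higher were 6 of 7 with the motif and 15 of 32 without. Over protein-coding genes, 30.3% of those with CACGTG in the window were called higher and 26.0% of those without, and 27.7% of those with TCACGTGA and 26.5% of those without. With the GC and length correction, 3 of the 12 members with CACGTG were called higher and 1 lower, against 9 higher and 2 lower of the 27 without. The larger share among members with the motif was thus not kept, while the medians were 0.33 with it and 0.22 without. With the covariate for reads outside genes, 2 of the 12 and 6 of the 27 were called higher, with medians of 0.29 and 0.17. For TCACGTGA, 2 of 7 and 10 of 32 were called higher with the GC and length correction, with medians of 0.25 and 0.32. The medians with and without TCACGTGA were 0.34 and 0.20 with the covariate. The members with CACGTG that were not called were *CTSF*, *ARSB* and *GALNS*. The motif was counted in 6 of 21 hydrolases and 3 of 10 V-ATPase genes with a window. These are counts of letters in windows, and no binding was measured.

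Per length of exon, the most abundant members in the controls were *PSAP* at 153 CPM per kilobase, *CD63* at 146 and *LAMP1* at 40.7. The lowest values among the members tested were those of *TFEB* at 0.614 and *CTSZ* at 0.0299 CPM per kilobase, the latter uncertain for its overlap with *NELFCD*, and *ATP6V0C* could not be placed. In the order of the 54 members by this level, *ATP6V0B* moved from place 28 in the controls to place 8 with *Esrrg*, and *LIPA* from place 16 to place 36. Among the V-ATPase genes the small subunits *ATP6V1F* and *ATP6V0E1* led in both groups, at 28.7 and 28.5 CPM per kilobase in the controls and at 76.6 and 75.3 with *Esrrg*. Between these 2 genes the levels did not differ beyond the spread of the libraries.

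A further 86 genes of the lysosome, listed for the same functions, were examined beside the members. Of 79 tested, 24 were called higher (30.4%) and 8 lower (10.1%), shares near the 25.9% and 12.4% of all protein-coding genes, and the median log2 fold change was 0.29. By group, 7 of 23 hydrolases and cofactors were higher and 3 lower, 4 of 19 membrane proteins were higher and 0 lower, 3 of 8 sorting and modification genes were higher and 0 lower, 6 of 13 regulators and Ragulator genes were higher and 2 lower, and 4 of 16 other V-ATPase isoforms and regulators were higher and 3 lower. The largest increases were in *ATP6V0E2*, a second e subunit, in *LAPTM4B*, a late endosomal membrane protein, in *LAMTOR4* and *LAMTOR2*, both parts of the Ragulator complex that anchors mTORC1 at the lysosome, and in *SLC17A5*, the sialic acid exporter. *ATP6V0E2* rose from 26.4, 30.7 and 29.5 to 58.7, 78.2 and 91.7 CPM (log2 fold change 1.40), beside 1.40 for its paralog *ATP6V0E1*. *LAPTM4B* rose from 119.5, 135 and 135 to 237, 336 and 350.0 CPM (log2 fold change 1.25). *LAMTOR4* and *LAMTOR2* both had a log2 fold change of 1.22, and *SLC17A5* had 1.15.

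The largest decreases in the further list included the cofactor *GM2A*, which presents ganglioside GM2 to β-hexosaminidase. It fell from 43.6, 48.1 and 47.3 CPM to 18.3, 20.02 and 22.6 CPM, with no overlap (log2 fold change -1.19, SE 0.11, adjusted p = 3e-05). *DMXL1* and *DMXL2* encode rabconnectins, which promote the assembly of V1 with V0. *DMXL1* was at 119, 99.6 and 109 CPM in the controls and at 63.3, 48.5 and 41.0 CPM with *Esrrg* (log2 fold change -1.10, SE 0.15, adjusted p = 0.00024). *DMXL2* was at 97.6, 78.2 and 82.5 CPM and at 54.5, 43.4 and 37.9 CPM (log2 fold change -0.93, SE 0.14, adjusted p = 0.00044). The groups were apart in both genes. Replicate 2 was the *Esrrg* library nearest to the controls in *DMXL1* and *DMXL2*, but the farthest from them in *GM2A*. Of the cathepsins outside the members, *CTSV* had a log2 fold change of -1.04 and *CTSK* of -0.81. *MITF*, the third of the E-box regulators, rose from 5.60, 6.43 and 6.28 to 12.2, 13.0 and 12.0 CPM, a log2 fold change of 1.02, and is named here after its value was seen. Of the 7 genes not tested, *NEU1*, *ATP6V0D2*, *ATP6V1G2* and *ATP6V1G3* were listed at 0 counts in every library.

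Under all 18 alternatives together, 6 of the 24 called members kept their call in each, namely *CTSC*, *GLA*, *ATP6V0B*, *ATP6V0D1*, *ATP6V0E1* and *ATP6V1F*. The alternatives include the 2-fold limit, which removes smaller changes by construction and kept 7 of the 24. *FUCA2* and *LIPA* lost their call only under that limit. The GC and length correction kept 14 of the 24, and lost *CTSA*, *CTSD*, *GAA*, *NAGLU*, *SMPD1*, *NPC2*, *LAMP1*, *CD63*, *MCOLN1* and *TFE3*. The covariate for reads outside genes kept 11 of the 24. Without Ad CMV 3xFlag-*Esrrg* replicate 2, 31 members were called higher, and the hydrolase median was 0.54 in place of 0.35.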

How the data were processed

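RNA was sequenced from SH-SY5Y cells after 24 h of infection with Ad CMV GFP or Ad CMV 3xFlag-*Esrrg* (0.5 ul of virus), with 3 libraries per group. The sample labels gave each library's group and replicate number. The authors deposited raw counts per gene from HTSeq. The submitters' processing notes name CASAVA, Trim Galore 0.6.7, STAR 2.7.9a, HTSeq 0.11.3, DESeq2 and GRCh38; the annotation release and the strand setting are not given in the sources used here, so members that share over 20% of their exon bases with another gene are given as uncertain. The table held 67060 gene rows and 5 summary rows. The summary rows, which took no part in library sizes or tests, made up 63.5% to 64.0% of the reads with Ad CMV GFP and 52.3% to 61.6% with Ad CMV 3xFlag-*Esrrg*. GENCODE release 44 gave symbols, positions, GC content and exon lengths for 60419 rows (90.1%).

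Counts were tested in R 4.3.3 with edgeR 4.0.16 (filterByExpr, TMM, quasi-likelihood test). Adjusted p-values are Benjamini-Hochberg over 24500 genes, and the cutoff was 0.05 and 1.5-fold. The study's methods state that cutoff for its mouse data with DESeq2 and state none for these cells. Each standard error was obtained by dividing the size of the log2 fold change by the root of its F statistic. Log2 fold changes use edgeR's default prior count. A prior count of 2 entered only the log CPM used for the GC and length correction and for the correlations between libraries. With 3 libraries against 3, an exact permutation test of a single value cannot go below p = 0.1, so none was run. Alternatives were DESeq2 1.42.0, RLE size factors, library size only, no filter or at least 10 counts in every library, protein-coding genes only, no fold limit or 2-fold, each library left out, the replicate number as a block, a GC and length correction (mgcv 1.9.3, values for 98.9% of genes), the latter together with the block, and a covariate for each library's percentage of reads outside genes. On simulated data with 200 of 24500 genes changed 2-fold, edgeR recovered 187 with 7 false calls and DESeq2 recovered 178 with 12. The simulation gave every gene the same dispersion and no library that stood apart. It changed only genes averaging at least 50 counts, equally up and down. In the real data 17.3% of genes were called higher and 16.8% lower, so the simulated rates do not carry over to them. Promoter windows came from RefSeq. Genes shown with every library's value were chosen by a written rule: the called members with the smallest adjusted p, members of a short list, every member called lower, and the largest changes among further genes averaging at least 50 counts. Values of other members were added for their class. The members and lists were chosen with earlier results of these data known, so no test was made over a list. Plots were drawn with matplotlib 3.10.9.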

Additional observations from a re-analysis of the deposited data

Results flagged for a closer look

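Reads that HTSeq could not assign because they overlapped several genes lie outside the gene counts, and their share was higher with Ad CMV 3xFlag-*Esrrg* than in any control library. With *Esrrg* it was 5.69% of all reads in replicate 2, 9.84% in replicate 3 and 9.79% in replicate 4, and it was 4.55%, 4.81% and 4.87% in Ad CMV GFP replicates 1, 3 and 4. The genes that these reads came from are not recorded, and 7 of the 54 members share more than 20% of their exon bases with another gene. The part of this share in the members' values was not tested.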

How the results depend on the processing

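The number of members called higher (23) was 13 when only library sizes were scaled, 14 after the GC and length correction, 10 with the percentage of reads outside genes as covariate, 7 with a 2-fold limit, and 21 to 31 when libraries were left out. The number called lower (1) was 4, 3, 2 and 0 in these settings, 2 with at least 10 counts in every library, 4 with protein-coding genes only, 3 with the replicate block and GC correction together, 4 without a fold limit, and 1 to 2 with a library left out. Hydrolases called higher (10) were 5 with the GC correction, 5 with the block added, 4 with the covariate, 16 without a fold limit, 2 at 2-fold and 9 to 14 with a library left out. Hydrolases called lower (1) were 3 with library size only, 2 with at least 10 counts, 3 with protein-coding genes, 3 with the GC correction, 3 with the block added, 2 with the covariate, 3 without a fold limit, 0 at 2-fold and 1 to 2 with a library left out. For the V-ATPase, 6 to 10 were called higher and 0 lower with a library left out, and 1 was called lower with library size only, with protein-coding genes and without a fold limit. Further genes called higher (24) were 11 with library size only, 14 with the GC correction, 14 with the block added, 9 with the covariate, 39 without a fold limit, 9 at 2-fold and 21 to 34 with a library left out. Those called lower (8) were 17, 4, 15 and 3 with library size only, the covariate, no fold limit and 2-fold, and 8 with each library left out. The shares of all genes called under these alternatives are not given here. Whether the members were still called more often than other genes there cannot be read from these counts.

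The hydrolase median (0.35) was 0.025 with library size only, which moved the median of all genes from -0.10 to -0.42, 0.21 with protein-coding genes, 0.067 with the GC correction, 0.10 with the block added, 0.13 with the covariate and 0.27 to 0.54 with a library left out. The V-ATPase median (0.58) was 0.24 with library size only, 0.22 with the covariate and 0.51 to 0.85 with a library left out. *ESRRG* was at 2.96 to 3.26 with a library left out. The cause of these moves was not tested, apart from the fold limits, which change the count by construction.

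The libraries share only the numbers 3 and 4, and their same-numbered correlations were 0.075 and -0.0001. Correlations between libraries of unlike number ranged from -0.13 to 0.14. So few same-numbered pairs cannot tell whether the numbers pair the samples. With the replicate block, 25 members were called higher and 1 lower, 8 of the V-ATPase genes were higher, and the medians were 0.39 and 0.69. Replicate 1 was only in the Ad CMV GFP group and replicate 2 only in the Ad CMV 3xFlag-*Esrrg* group. Under the block the group difference therefore rested on replicates 3 and 4 alone, also where the GC and length correction was added.

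Of 953 member values under alternatives, 776 kept their direction and call, 74 lost and 45 gained a call, and 58 in 20 members changed sign. None of the 58 was called in that alternative, and 0 of the 24 called members changed sign. Sign changes were, with DESeq2, *GRN* 0.0798 and *LAMP2* 0.0296, and with RLE size factors *GRN* 0.0798 and *LAMP2* 0.0295. Library size only gave *CTSB* -0.0819, *GUSB* -0.147, *FUCA1* -0.211, *ARSA* -0.0358, *GALNS* -0.0691, *TFEB* -0.0516, *ATP6V1A* -0.103 and *ATP6V1D* -0.24. Without the filter *GRN* was 0.0038, and with protein-coding genes *FUCA1* was -0.0195 and *ATP6V1D* -0.057. With each library left out in turn, *GRN* ranged from -0.128 to 0.211, *CTSZ* from -0.539 to 0.0682, *TPP1* from -0.137 to 0.044, *MANBA* from -0.164 to 0.0102, *ASAH1* from -0.126 to 0.0916, *LAMP2* from -0.0857 to 0.109, *SCARB2* from -0.126 to 0.0388 and *ATP6AP2* from -0.19 to 0.0246, and the highest value in each came without Ad CMV 3xFlag-*Esrrg* replicate 2. The replicate block gave *CTSZ* 0.175, *ASAH1* 0.0143, *GRN* 0.0465 and *LAMP2* 0.0319. The GC and length correction gave *CTSB* -0.0727, *GUSB* -0.235, *MANBA* 0.0811, *ARSA* -0.211, *GALNS* -0.164, *ASAH1* 0.174, *LAMP2* 0.232, *SCARB2* 0.112, *TFEB* -0.208 and *ATP6AP2* 0.085. With the block added it gave *CTSB* -0.0777, *GUSB* -0.216, *MANBA* 0.0993, *MAN2B1* -0.0201, *SGSH* -0.0848, *ARSA* -0.271, *GALNS* -0.211, *ASAH1* 0.287, *LAMP2* 0.36, *SCARB2* 0.167, *TFEB* -0.398 and *ATP6AP2* 0.192. The covariate gave *CTSB* -0.204, *GUSB* -0.206, *FUCA1* -0.21, *ATP6V1A* -0.0739, *ATP6V1B2* -0.0023 and *ATP6V1H* -0.0477.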
